A study of Mus musculus with 4 samples.

Results

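Integrins are the cell surface receptors that hold cells to the extracellular matrix, and laminins are the large proteins that make up the sheet of matrix, the basement membrane, on which epithelial, muscle and endothelial cells rest. An integrin is a pair of an alpha and a beta subunit, and the alpha subunit largely sets the ligand, whether collagen, laminin or the RGD peptide motif of fibronectin and vitronectin. A laminin is a cross-shaped trimer of an alpha, a beta and a gamma chain. In the uterus before implantation, luminal and gland epithelium, stroma, blood vessels and smooth muscle each carry their own combination of these chains.

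The genes described here were taken from the deposited expression table as protein-coding genes whose symbols begin as integrin alpha or beta subunits or are laminin chains, with the leukocyte integrin genes Itgal, Itgam, Itgax, Itgae, Itgb2 and Itgb7 left out. Of the 19991 genes in that table, 33 are described. Of these, 20 encode integrin subunits and 10 encode laminin chains. The other 3, Itgb1bp1, Itgb1bp2 and Itgb3bp, are caught by the pattern but encode proteins named for binding integrin tails, not subunits. All 33 passed the low-count filter, the lowest single value being 14 counts, for Itgb1bp2.

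RNA was sequenced from whole uterus on gestational day 4, in 2 wild-type control samples and 2 samples of the genotype Prss29Cre/Cre;Pgrf/f (Pgr gecKO). In the knockout both Prss29 alleles, which are normally active in uterine glands, carry Cre recombinase, and the mice also carry floxed Pgr, the progesterone receptor gene, so that Pgr is meant to be lost in gland epithelium while other uterine cells keep it. The controls carry neither Cre nor floxed alleles, so the disrupted Prss29 locus, the presence of Cre and the loss of Pgr cannot be told apart. The labels give no strain, age or number of animals per sample, and p-values therefore reflect only how far these particular samples spread, part of which may be technical.

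Total counts lay between 29932153 and 35149834 per library. Prss29 reads numbered 1524 and 190 in control libraries, against 0 and 0 in knockout libraries, where a count of 0 allows up to 0.0907 and 0.107 CPM (reads per gene relative to library size, adjusted with TMM factors). Pgr stood at 140.5 and 138.6 CPM in controls 1 and 2 and at 130.1 and 146.2 CPM in knockouts 1 and 2. This count covers the whole gene in all cell types and does not check the deletion in glands. The libraries also differed in tissue make-up within groups: the summed level of 10 smooth muscle markers was 8955 and 3371 CPM in the controls and 7685 and 11630 CPM in the knockouts. Summed epithelial markers lay between 1659 and 2185 CPM in the controls and 1871 and 2045 CPM in the knockouts, with 4 of 8 above control on the log2 scale. All 8 epithelial, 7 stromal and 10 smooth muscle markers of uterus were detected in each library, and 4 adipocyte markers summed to 20.1 CPM in knockout 2 and at most 4.36 CPM in the other libraries. In whole tissue, fewer cells of a type and less RNA per cell cannot be told apart.

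Levels are compared between genes in TPM (the deposited unit, which corrects for gene length) and between groups in CPM. Itgb1, the beta subunit shared by most integrins, was the most abundant member at a mean of 435 TPM over the 4 libraries. It was followed by Lamc1 at 154 TPM and Lamb2 at 128 TPM, the gamma and beta chains that many laminin trimers use. Lama1, an alpha chain best known from the early embryo and some adult glands and kidney, was the least abundant at 0.876 TPM. Of the 33 members, 21 had a mean of at least 10 TPM and 4 a mean under 2 TPM.

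**Figure D1:**
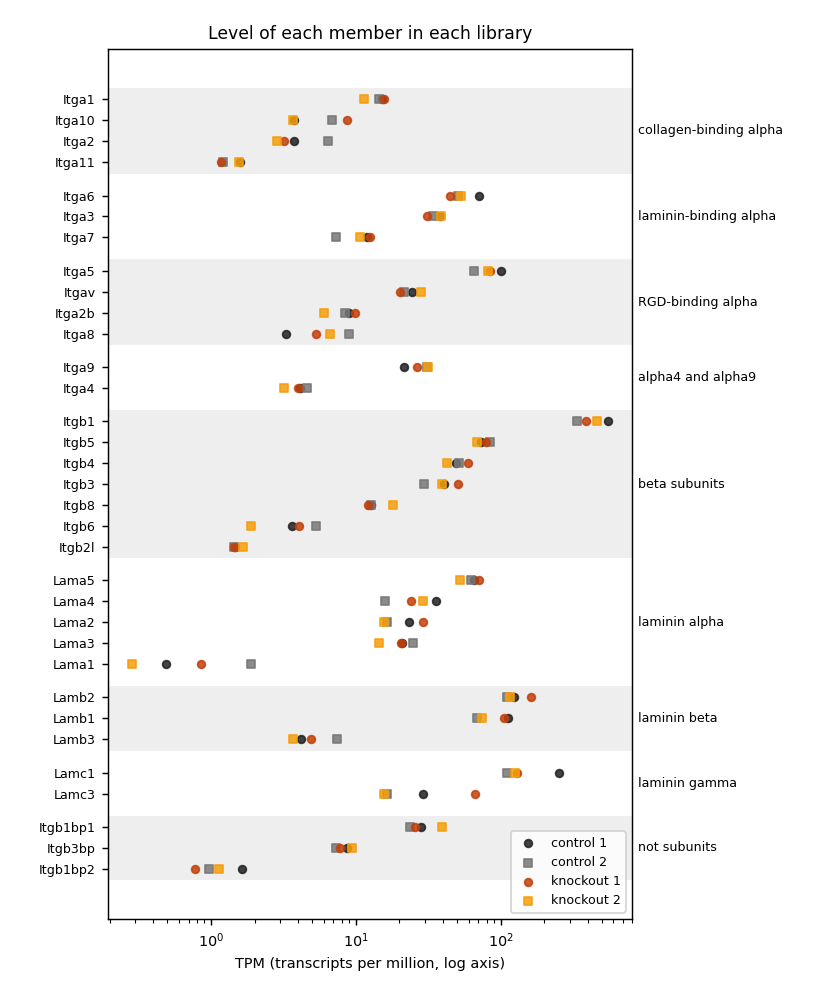
Each point is the TPM of a gene in 1 library (log axis), with 4 libraries per gene and genes grouped by role. Itgb1 lies farthest to the right at a mean of 435 TPM and Lama1 farthest to the left at 0.876 TPM, and for most genes the points of the groups interleave.

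None of the 33 members passed the test between knockout and control. In edgeR's quasi-likelihood test over 20950 genes, 0 members were called lower and 0 higher at an adjusted p under 0.05 (the Benjamini-Hochberg adjusted p was 0.99998 for each member). Over all genes tested the same rule called 0% lower and 0.00477% higher. At an unadjusted p under 0.05, 0 members were lower and 0 higher, against 1.79% and 1.22% of all genes tested. DESeq2, which called 0.202% of genes lower and 0.194% higher, called 0 members, and limma-voom called 0 members and no gene at all. In limma-voom, as in DESeq2, 0 members had an unadjusted p under 0.05.

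The family was centred near no difference. The median log2 fold change, knockout over control, was 0.040 for the 20 integrin subunits and 0.014 for the 10 laminin chains, beside 0.0063 over all genes tested. Of the 33 members, 13 had a log2 fold change below 0, while 48.9% of all genes did. For 18 of the 33 the 95% interval of the fold change lay wholly within a 2-fold change in either direction, and for the remaining 15 it reached past 2-fold. In 30 of the 33 the larger of the 2 gaps between replicates of a group exceeded the difference between the groups, against 84.8% of all genes.

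**Figure D2:**
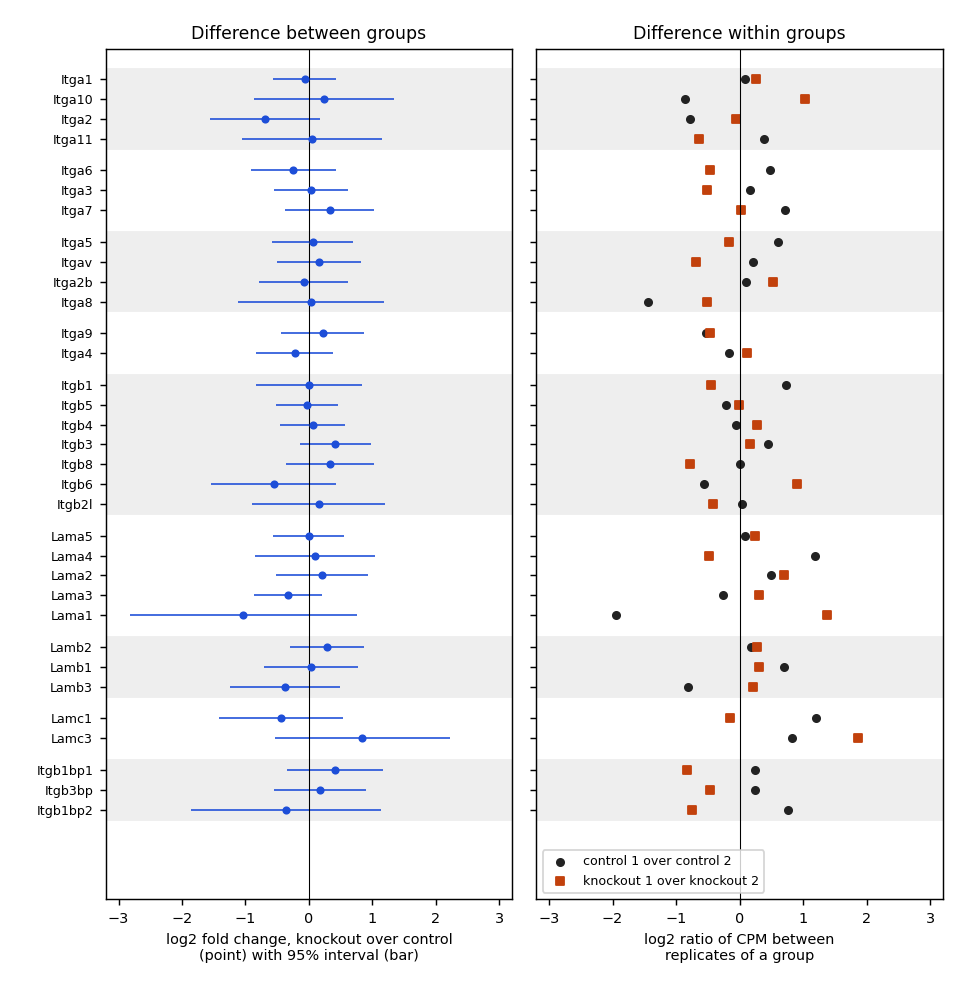
The left panel gives the log2 fold change of each member, knockout over control, with its 95% interval from edgeR, and the right panel the log2 ratio of CPM between the 2 replicates of each group. All 33 intervals include 0, and the replicate ratios of most members reach past their fold change.

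The knockout and control values did not overlap in CPM for 6 members. Itga2, Itga4 and Lama3 were below both controls, and Itga7, Itgb3 and Lamb2 above both. Among all genes tested, 13.1% lay wholly below and 12.2% wholly above. On the deposited TPM scale the same 3 lay below, where 14.3% of genes did, and 0 members lay above, where 9.43% did, so the order of the 3 higher ones depends on the scaling.

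Lama3 (ENSMUSG00000024421), an alpha chain of epithelial basement membranes, was at 69.4 and 83.3 CPM in controls, against 66.9 and 54.1 CPM in knockouts (a log2 fold change of −0.33, SE 0.22). The groups did not overlap, but knockout 1 lay only slightly below control 1. Lamb3 (ENSMUSG00000026639), an epithelial beta chain, was at 8.66 and 15.2 CPM in controls, against 9.85 and 8.48 CPM in knockouts (a log2 fold change of −0.38, SE 0.36). Here control 2 was high and control 1 lay within the knockout range, and without control 2 the log2 fold change was 0.081.

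**Figure D3:**
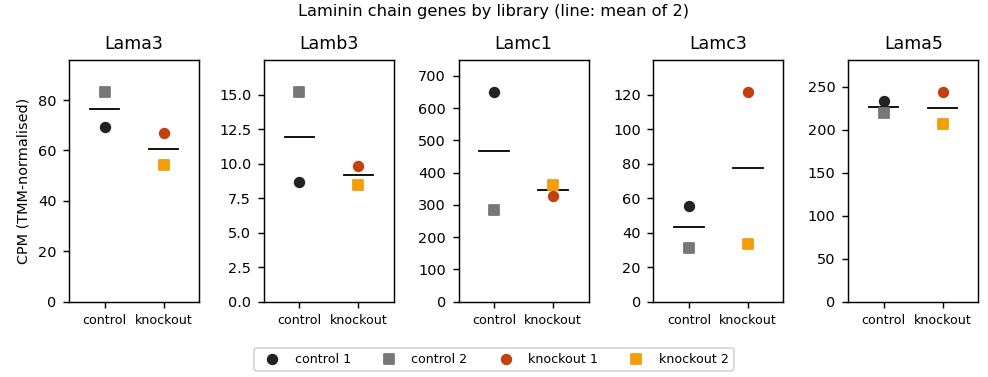
CPM of 5 laminin chain genes in each library, with a line at the mean of the 2 replicates and axes from 0. The groups of Lama3 lie close together without overlap, whereas Lamc1 and Lamc3 each have 1 library far from the other 3.

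Knockout 2 had the lowest Lama3 and the second highest sum of epithelial markers, whose part in the Lama3 values was not tested. Per 1000 CPM of these markers, Lama3 was at 41.8 and 38.1 CPM in controls, against 35.8 and 26.5 CPM in knockouts, without overlap. Of these markers, Cdh1 and Epcam lay below both controls in both knockouts, and the groups of the others overlapped in CPM. The 8 markers had a median log2 fold change of 0.092, with 4 above control and 4 below. As a share of the summed alpha chain TPM of its library, Lama3 made up 14.16% and 20.55% in controls and 14.18% and 12.96% in knockouts, and there the groups overlapped. The 7 gland markers, Prss29 among them, summed to 162.9 and 138.7 CPM in controls, against 63.9 and 91.5 CPM in knockouts, with 6 of 7 below control, and their part in the Lama3 values was not tested.

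The gamma chains Lamc1 and Lamc3 varied mainly between libraries. Lamc1 (ENSMUSG00000026478), the common gamma chain, was at 650.8 CPM in control 1 and 283.4 CPM in control 2, and at 326.7 and 362.5 CPM in the knockouts (log2 fold change −0.44, SE 0.41). Control 1 stood apart, and without it the log2 fold change was 0.30. Lamc3, a gamma chain reported from nerve, vessel and some epithelial sites, was at 55.3 and 31.2 CPM in controls, against 121.7 and 33.3 CPM in knockouts. The groups overlapped and knockout 1 alone was high. The log2 fold change was 0.84 (SE 0.58), and −0.37 without that library.

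Among laminin alpha chains, Lama5, the main alpha chain of adult epithelial and endothelial basement membranes, was the most abundant at 62.6 TPM and the most even. It was at 233.3 and 219.8 CPM in controls, against 244.3 and 207.2 CPM in knockouts, with a log2 fold change of −0.0053 and a 95% interval of −0.56 to 0.55. Lama4, an alpha chain of vessels and muscle, was at 135.9 and 59.4 CPM in controls, against 87.0 and 121.9 CPM in knockouts. Control 2 was lowest and control 1 highest, and the knockouts lay between them (log2 fold change 0.097, SE 0.40). Lama2, the alpha chain of muscle and nerve, ranged from 85.4 to 145.8 CPM over the 4 libraries and its groups overlapped. Lama1 had 51 and 199 counts in controls and 83 and 27 in knockouts, and its interval of −2.82 to 0.76 was the widest of the members. Its log2 fold change of −1.03 was 0.24 without control 2.

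The beta chains were dominated by Lamb1 and Lamb2, the chains of most basement membranes, the latter typical of muscle and vessel walls. Lamb2 was at 236.3 and 209.5 CPM in controls, against 296.7 and 245.3 CPM in knockouts (a log2 fold change of 0.28, SE 0.24, 95% interval −0.30 to 0.86). Both knockouts lay above both controls in CPM, but in TPM knockout 2 lay at 116 and control 1 at 124. Lamb1 was at 345.4 and 213.5 CPM in controls, against 316.1 and 255.7 CPM in knockouts, with the knockouts between the 2 controls.

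Within a library, chain shares do not depend on library scaling. Lama5 made up 44.9% and 51.2% of the summed alpha chain TPM in controls and 48.8% and 46.8% in knockouts. Lamb2 made up 51.8% and 59.1% of beta chain TPM in controls and 59.4% and 59.8% in knockouts, and control 2 lay close to the knockouts. Its exact two-sided permutation p was 0.333, the smallest that 2 against 2 samples can give.

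**Figure D4:**
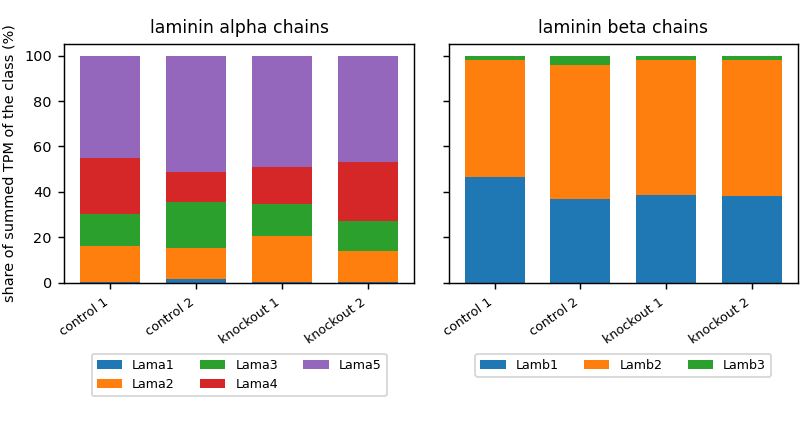
Stacked bars give the share of each laminin chain in the summed TPM of its class (alpha or beta), in percent, for each of the 4 libraries. Lama5 holds between 44.9% and 51.2% of the alpha class throughout, and Lamb2 between 51.8% and 59.8% of the beta class.

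Integrin beta subunits define the main receptor families. Itgb1 (ENSMUSG00000025809) was at 707.5 and 427.4 CPM in controls, against 482.0 and 656.1 CPM in knockouts. The knockouts lay between the controls, and the log2 fold change of 0.0040 had a 95% interval of −0.83 to 0.84. Itgb5, a partner of Itgav in binding vitronectin, was more even, at 80.7 and 93.2 CPM in controls, against 84.5 and 85.1 CPM in knockouts (a log2 fold change of −0.037, 95% interval −0.52 to 0.45). Itgb4, the partner of Itga6 in hemidesmosomes, lay between 104.1 and 125.6 CPM in all 4 libraries.

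Itgb3 (ENSMUSG00000020689), the other Itgav partner often studied as a marker of uterine receptivity, was at 74.3 and 54.6 CPM in controls, against 90.9 and 81.1 CPM in knockouts. Both knockouts were above both controls in CPM, but in TPM knockout 2 at 39.3 lay below control 1 at 40.3. Its log2 fold change was 0.42 (SE 0.23, 95% interval −0.14 to 0.97, unadjusted p in edgeR 0.120). Itgb3 also pairs with Itga2b on platelets. Itga2b was at 15.2 and 14.2 CPM in controls, against 16.4 and 11.4 CPM in knockouts. The 4 tested platelet markers, which include it, summed to 22.2 and 19.1 CPM in controls, against 18.6 and 16.4 CPM in knockouts. Itga2b made up most of that sum, at 686 and 744 per 1000 CPM in controls and 878 and 696 in knockouts. The part of platelets in the Itgb3 values was not tested. The share of Itgb3 among beta subunits was 5.48% and 5.70% in controls and 8.53% and 6.22% in knockouts (exact permutation p = 0.333, the smallest possible). The mean difference was 1.79 percentage points, and 0.631 without knockout 1.

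Itgb6, an epithelial partner of Itgav that activates latent TGF-beta, was at 8.03 and 11.8 CPM in controls, against 8.77 and 4.71 CPM in knockouts (a log2 fold change of −0.56, SE 0.41). Knockout 2 was lowest and knockout 1 lay between the controls. Itgb8, a further Itgav partner with a like role, was at 44.0 and 43.6 CPM in controls, against 40.6 and 69.5 CPM in knockouts, with knockout 2 alone high and a log2 fold change of 0.33 that was −0.11 without it. Itgb2l, which resembles the leukocyte subunit gene Itgb2, had between 62 and 70 counts, and its value is uncertain if reads of near-identical sequence were shared.

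Of the laminin-binding alpha subunits, Itga6 was the most abundant at 54.8 TPM and Itga3, its relative in epithelia, followed at 35.4 TPM. Itga6 was at 202.1 and 144.8 CPM in controls, against 122.9 and 169.8 CPM in knockouts (a log2 fold change of −0.24, SE 0.28). Control 1 was highest and the groups overlapped. Its share of alpha subunit TPM was 23.0% and 19.5% in controls and 16.7% and 19.1% in knockouts (exact permutation p = 0.333), a mean difference of −3.40 percentage points that was −1.61 without control 1. Itga3 was at 67.6 and 60.4 CPM in controls, against 53.9 and 77.0 CPM in knockouts, with the controls between the knockouts. Itga7, the laminin receptor of muscle, was at 30.3 and 18.5 CPM in controls, against 30.7 and 30.4 CPM in knockouts (a log2 fold change of 0.33, SE 0.29). Control 2 was the only low library, and without it the log2 fold change was 0.010. The smooth muscle marker sum was lowest in control 2 and highest in knockout 2, and its part in the Itga7 values was not tested.

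Among RGD-binding subunits, Itga5, the fibronectin receptor, was at 153.9 and 100.8 CPM in controls, against 125.3 and 140.3 CPM in knockouts, and Itgav was at 82.6 and 71.7 CPM in controls, against 65.7 and 106.0 CPM in knockouts. For Itga5 the knockouts lay between the controls, and for Itgav the controls lay between the knockouts. Their 95% intervals of log2 fold change were −0.58 to 0.70 and −0.50 to 0.81. Itga8, a subunit of stroma and smooth muscle, was at 7.57 CPM in control 1 and 20.7 CPM in control 2, with both knockouts between them.

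Collagen receptors were led by Itga1, the receptor of smooth muscle and stroma, at 88.1 and 83.2 CPM in controls, against 88.7 and 74.5 CPM in knockouts (a log2 fold change of −0.070, 95% interval −0.57 to 0.43). Itga2 (ENSMUSG00000015533), the collagen receptor of epithelia and platelets, was at 8.29 and 14.3 CPM in controls, against 6.86 and 7.13 CPM in knockouts. Both knockouts were below both controls, control 2 was well above control 1, and the log2 fold change was −0.69 (SE 0.36, 95% interval −1.56 to 0.18). Without control 2 it was −0.25. Itga1 and Itga2 are adjacent protein-coding genes in the RefSeq annotation of GRCm38.p6. Itga10, best known from cartilage, was at 6.10 and 11.1 CPM in controls, against 13.6 and 6.63 CPM in knockouts, and Itga11, of fibroblasts, had 60 to 88 counts per library.

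Itga9, a receptor for tenascin and osteopontin, was at 51.7 and 74.8 CPM in controls, against 61.7 and 85.2 CPM in knockouts (a log2 fold change of 0.22, SE 0.27). Itga4, its relative on leukocytes and other cells, was at 17.9 and 20.1 CPM in controls, against 16.9 and 15.5 CPM in knockouts (a log2 fold change of −0.23, SE 0.25). The groups of Itga4 did not overlap, although control 1 lay nearer to knockout 1 than to control 2. The 6 macrophage markers were all below control on the log2 scale, summing to 437.4 and 633.1 CPM in controls, against 336.6 and 372.4 CPM in knockouts, and their part in the Itga4 values was not tested.

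Control 2 was the lowest library for 12 of the 33 members, and it also had the lowest smooth muscle sum. Of these members, Itgb1bp1 and Itgb3bp were highest in knockout 2, the library with the highest sum. Itga5, Itgb1, Lama4, Lamb1 and Lamc1 were highest in control 1, and Itga7, Itgb3, Lama2, Lamb2 and Lamc3 in knockout 1. Control 2 was in turn the highest library for 8 members, among them Itga2, Itgb6, Lama3 and Lamb3. The part of tissue make-up in these values was not tested.

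The other genes of the basement membrane and of integrin signalling were taken from a list of 41. In edgeR 0 were called lower and 0 higher over all genes, and 2 were lower and 2 higher at an unadjusted p under 0.05, against 1.79% and 1.22% of all genes tested. That total of 4 was 2 with limma on log2(TPM + 1) and 5 with another scaling (upper-quartile factors). Over all genes, 511 of 19991 and 626 of 20950 passed the same threshold in those runs. The median log2 fold change was 0.016. The most abundant were the basement membrane genes Col4a1, Nid1 and Col18a1, at 283, 271 and 268 TPM. Their log2 fold changes were −0.35, 0.016 and 0.10, and each interval included 0.

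The 4 past the unadjusted threshold encode 3 matrix proteins and 1 adaptor, and Tnc had the next smallest p. Npnt, the basement membrane ligand of the integrin of Itga8, was at 67.8 and 49.0 CPM in controls, against 99.8 and 102.1 CPM in knockouts (a log2 fold change of 0.79, SE 0.24, unadjusted p in edgeR 0.0126). Thbs1, the matrix protein thrombospondin, was at 197.6 and 215.3 CPM in controls, against 134.4 and 114.4 CPM in knockouts (a log2 fold change of −0.73, SE 0.23). For both genes, named for their small p, the groups did not overlap in CPM. Of the 41, 2 lay wholly below the controls and 6 wholly above, against 13.1% and 12.2% of all genes tested. Lims2, an adaptor of the complex that ties integrins to actin, was at 36.4 and 31.6 CPM in controls, against 48.7 and 48.7 CPM in knockouts. Spp1, the RGD ligand osteopontin, was at 18.9 and 73.1 CPM in controls, against 19.4 and 7.06 CPM in knockouts, where control 2 alone was high and the groups overlapped. Tnc, tenascin, was at 74.3 and 29.4 CPM in controls, against 10.7 and 30.2 CPM in knockouts, and overlapped in CPM. In TPM both Tnc values of the knockouts, 4.55 and 11.1, lay below those of the controls, 30.6 and 12.1. The smallest DESeq2 adjusted p of the 41 was 0.768.

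**Figure D5:**
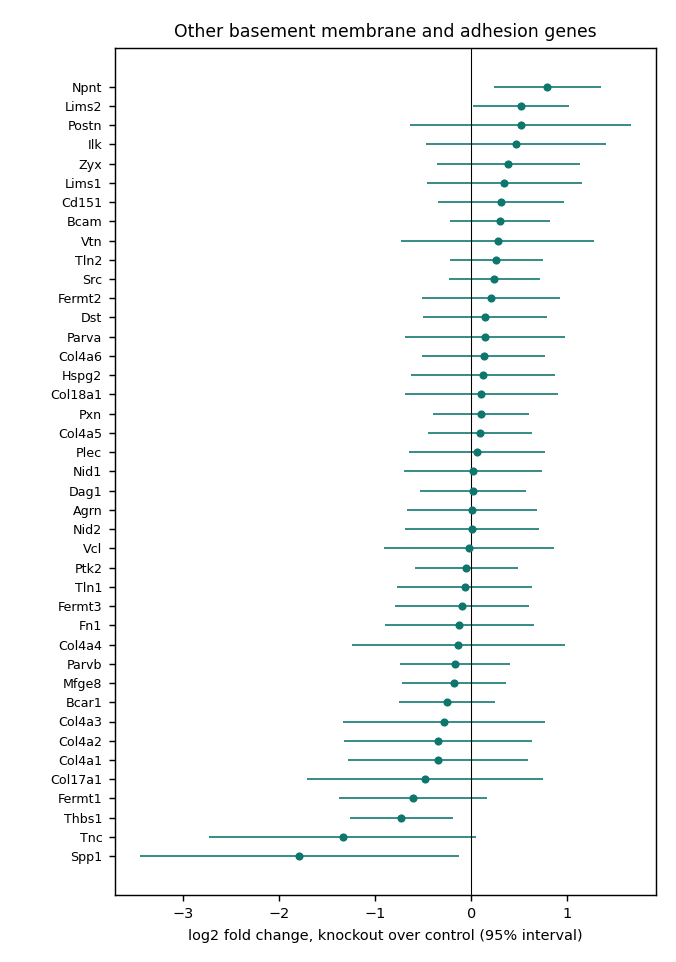
Log2 fold change, knockout over control, with 95% interval from edgeR, for the 41 other basement membrane and adhesion genes, ordered by value. The intervals of Npnt, Lims2, Thbs1 and Spp1 leave out 0, and none of the 41 passed after adjustment over all genes.

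Among the 3 members that are not subunits, Itgb1bp1, which encodes a protein that binds the Itgb1 tail, was at 31.1 and 26.2 CPM in controls, against 27.3 and 48.8 CPM in knockouts, with knockout 2 alone high. Itgb3bp, which encodes a nuclear protein of the centromere, was at 12.6 and 10.6 CPM in controls, against 10.97 and 15.1 CPM in knockouts, and the groups overlapped. Itgb1bp2, a muscle chaperone gene, had 32 and 19 counts in controls and 14 and 20 in knockouts. Its interval of log2 fold change ran from −1.86 to 1.13, which leaves in a 2-fold difference in either direction.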

How the data were processed

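RNA was sequenced from whole uterus in 2 control and 2 knockout samples. Per the submitters' processing notes, the tools were Trimmomatic, STAR and featureCounts and the genome build GRCm39; versions, strand setting and treatment of reads with several matches were not given by the sources used here. The authors deposited raw counts for 57186 genes and TPM for 19991 genes, which on checking were those with a total count of at least 51.

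Counts were fitted with edgeR 4.0.16 (R 4.3.3; TMM, filterByExpr minimum count 10, group as the only term, 95% intervals), leaving 20950 genes, with Benjamini-Hochberg adjustment over all of them. The standard error is the log2 fold change divided by the root of F. DESeq2 1.42.0, limma 3.58.1, other scalings and filters, a replicate block and leaving out each library were alternatives. The code was tested on simulated data.

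Members, lists and tests were chosen with earlier results of these data known. Members given in each library were the 2 most abundant of each role, those whose groups did not overlap, those with an unadjusted p under 0.05, and Itgb3 and Itga2b. The other members given per library were added after their values were seen. Of the 41 other genes, the 5 with the smallest p and the 3 most abundant were named. Of the genes that the rule takes in, 1 is not reported here. No set test was run. Counting floors of 3 counts cover counting error only.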

Additional observations from a re-analysis of the deposited data

How the results depend on the processing

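No member was called under any alternative run, and none of the 41 other basement membrane genes except with crossed replicate numbers. Over all genes, edgeR called 1, and the count was 90 with DESeq2, 0 with limma-voom, 54 with no low-count filter, 0 with at least 50 counts in 2 samples, 3 with log2(TPM + 1), 32 with the replicate block, and 16 to 49 with 1 library left out. Equal replicate numbers share no stated animal or day, and replicate 1 deviations of the groups correlated at −0.444. With crossed numbers, a pairing chosen after seeing the data, 37 genes were called, 2 of them among the 41 (Spp1 and Tnc, both lower).

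The integrin median was −0.085 to 0.18 and the laminin median −0.28 to 0.34 with 1 library left out. Of 21 members with a value in each library by rule, 6 kept their sign in all 12 settings. With all 4 libraries 19 of 21 did, the exceptions being Itga3 (−0.045 with log2(TPM + 1)) and Itgb1 (−0.013 with upper-quartile factors, −0.0035 with no filter, −0.026 with log2(TPM + 1)). With 1 library left out the log2 fold change spanned −0.20 to 0.054 for Itga1, −0.37 to 0.73 for Itga10, −0.37 to 0.15 for Itga2b, −0.24 to 0.27 for Itga3, −0.21 to 0.41 for Itga5, −0.49 to 0.031 for Itga6, −0.032 to 0.50 for Itga9 and −0.23 to 0.46 for Itgav. It spanned −0.32 to 0.43 for Itgb1, −0.12 to 0.070 for Itgb5, −0.38 to 0.83 for Lama4, −0.13 to 0.11 for Lama5, −0.27 to 0.43 for Lamb1, −0.92 to 0.30 for Lamc1 and −0.37 to 1.495 for Lamc3. Of all 33 members, 26 turned sign without at least 1 library. The cause was not tested.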
